A study of Mus musculus with 27 samples.

Results

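The mitosis and G2/M genes are 32 genes whose products enter mitosis, build the spindle, attach and watch chromosomes, and split the cell. They were chosen by name, and all 32 were found among the 30735 genes of the expression table. RNA was sequenced from B220+ purified B cells of mice in 27 samples: 19 lymphomas, 4 cultures of healthy splenic B cells treated with LPS (bacterial lipopolysaccharide, which makes B cells divide) for 2 days, and 4 samples of healthy splenic B cells without treatment, called resting cells here. The lymphomas came from hv, cr and co mice, described as c-myc Igh transgenic, and the labels do not say what these names stand for or which promoter drives the transgene. 8 lymphomas were titled hv, 7 cr and 4 co; 12 came from lung, 4 from mesenteric lymph nodes (MLN) and 3 from peripheral ones (PLN). The LPS-treated and the resting groups each held 1 sample of healthy wt, cr, co and hv mice, so the transgenic and the wt genotypes share these control groups. The labels give neither ages nor whether a sample is 1 animal or a pool, so p-values measure only the spread between these samples. 1 lung lymphoma, Lung hv T39, was titled hv and described as CO, and it was left out where lines or sites were compared.

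Genes of G2 and mitosis are switched on together late in the cell cycle and are nearly silent in cells that have left it. In non-dividing cells the DREAM complex holds their promoters down, and in late S phase and G2 MYBL2 (B-MYB) and FOXM1 join the MuvB core of the same complex to raise them, through a short element called the CHR (cell cycle genes homology region) and neighbouring CCAAT boxes bound by NF-Y. Cyclin B with CDK1 then drives the cell into mitosis, PLK1 and the Aurora kinases build the spindle, BUB1, BUBR1 and TTK hold the cell until every chromosome is attached, and CDC20 with the anaphase-promoting complex ends mitosis by marking cyclin B for destruction. In B cells a high level of these genes marks blasts after stimulation, germinal centre cells and fast-growing lymphomas.

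The promoter letters of 5 members show this shared architecture. Each stretch holds the 200 bases before the annotated start in RefSeq (GRCm38.p6), read 5′ to 3′ on the gene's strand, with the searched letters TTTGAA (the CHR) and CCAAT in capitals, on either strand (TTCAAA and ATTGG). Mki67 and Top2a are shown as the most used proliferation markers, Cdk1 as the kinase, and Cdc20 and Ube2c as the exit genes.
Mki67 (chr7:135716380-135716579, minus strand): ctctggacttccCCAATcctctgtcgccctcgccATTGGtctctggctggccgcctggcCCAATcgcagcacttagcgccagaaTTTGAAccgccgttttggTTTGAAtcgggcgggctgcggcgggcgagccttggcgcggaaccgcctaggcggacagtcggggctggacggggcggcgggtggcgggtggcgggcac
Top2a (chr11:99024190-99024389, minus strand): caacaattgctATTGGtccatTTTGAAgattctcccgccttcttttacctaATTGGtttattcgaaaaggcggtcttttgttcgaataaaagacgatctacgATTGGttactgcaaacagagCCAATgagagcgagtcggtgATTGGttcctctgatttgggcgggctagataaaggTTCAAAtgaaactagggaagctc
Cdk1 (chr10:69352913-69353112, minus strand): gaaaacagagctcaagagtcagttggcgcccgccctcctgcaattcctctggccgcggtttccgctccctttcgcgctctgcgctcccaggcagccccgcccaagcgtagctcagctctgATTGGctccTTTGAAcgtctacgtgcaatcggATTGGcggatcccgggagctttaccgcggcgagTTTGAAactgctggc
Cdc20 (chr4:118437344-118437543, minus strand): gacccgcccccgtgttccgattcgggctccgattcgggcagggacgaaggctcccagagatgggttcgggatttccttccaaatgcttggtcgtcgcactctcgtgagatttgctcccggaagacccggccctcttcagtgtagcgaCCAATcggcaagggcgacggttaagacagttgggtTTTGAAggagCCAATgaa
Ube2c (chr2:164769729-164769928, plus strand): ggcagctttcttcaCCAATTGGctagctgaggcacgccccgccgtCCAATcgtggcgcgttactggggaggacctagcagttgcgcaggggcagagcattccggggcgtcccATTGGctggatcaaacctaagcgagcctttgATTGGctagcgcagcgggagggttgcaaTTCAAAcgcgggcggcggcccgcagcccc
In these stretches Top2a and Ube2c each have 5 CCAAT matches, the farther of the 2 CHR matches of Cdk1 lies next to a CCAAT box, and Cdc20 has a CHR between a pair of CCAAT boxes. The first CCAAT of Ube2c overlaps a match on the other strand. Of the genes that the comparisons below turn on, Aurka lies at chr2:172356190-172370535, Plk1 at chr7:122159437-122169875 and Bub1b at chr2:118598211-118641591 (GRCm38).

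Promoter entries were found for 27 of the 32 members, with none for Aurkb, Tpx2, Ccna2, Cdc25c and Kif20a. Within 250 bases before to 50 bases after the start, TTTGAA was present on either strand in 20 of the 27 members (74.1%), against 20.2% of 27025 genes. CCAAT was present in 74.1% of members, against 41.1% of all genes, and at least 2 copies in 51.9%, against 13.1%. Both were present in 17 members (63.0%), against 8.97% of genes. The E-box letters CACGTG, which MYC can bind, were in 2 members (7.41%), Anln and Ttk, against 8.09% of all genes. A match of letters describes the window and does not show binding.

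Depth, inferred from the steps between low TPM values, lay between 11530000 and 32030000 read pairs, around a median of 21460000. TPM is the relative abundance of a transcript per length within a library, so levels can be compared between genes. The repeat-like gene Gm10800 took over 1% of all TPM in 4 libraries (resting wt, LPS cr, LPS hv and MLN cr T6). It reached 18.6% in LPS cr, and results that turn on these libraries are also given without them. Gm20594 took a share in every library, from 10.9% in LPS cr to 34.3% in MLN cr T35. It was 12.5, 10.9, 16.3 and 13.6% in LPS-treated and 17.9, 17.2, 18.6 and 19.7% in resting wt, cr, co and hv cells. Rescaling without Gm20594, Gm10800 and haemoglobin genes moved the members' sum in MLN cr T35 from 1126 to 1720 TPM. The mean sum moved from 1794 to 2203 TPM in lymphomas, 2684 to 3292 TPM in LPS-treated and 865 to 1205 TPM in resting cells. B-cell markers were present in each group: the sum of 9 was 2363 to 10398 TPM in the lymphomas, 2556 to 4439 TPM in LPS-treated cells and 7233 to 13333 TPM in resting cells. Myc, the gene of the transgene, had 78.8 to 362 TPM in lymphomas, 55, 155, 115 and 136 TPM in LPS-treated and 185, 121, 109.9 and 89 TPM in resting wt, cr, co and hv cells, and the table does not part transgenic from endogenous transcripts. Resting samples also carried erythroid RNA, given beside the results it moves with below. In bulk RNA, fewer cells of a type and less RNA per cell cannot be told apart.

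Summed over the 32 genes, transcripts were most abundant in LPS-treated cells, intermediate in lymphomas and lowest in resting cells. The sum was 1794 ± 580.2 TPM in lymphomas (SD, n = 19), with 597 TPM in PLN hv T15, a median of 1839 TPM and 2953 TPM in Lung hv T5. LPS-treated cells had 3154, 2114, 2765 and 2703 TPM in wt, cr, co and hv, and resting cells 346, 895, 720.4 and 1498 TPM in the same order. The groups of LPS-treated and resting cells did not overlap, whereas lymphomas overlapped both: the lowest lymphoma lay below resting cr, co and hv, and the highest above LPS co, hv and cr. Resting hv, at 1498 TPM, stood within the lymphoma range, and resting wt, at 346 TPM, below every lymphoma.

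**Figure D1:**
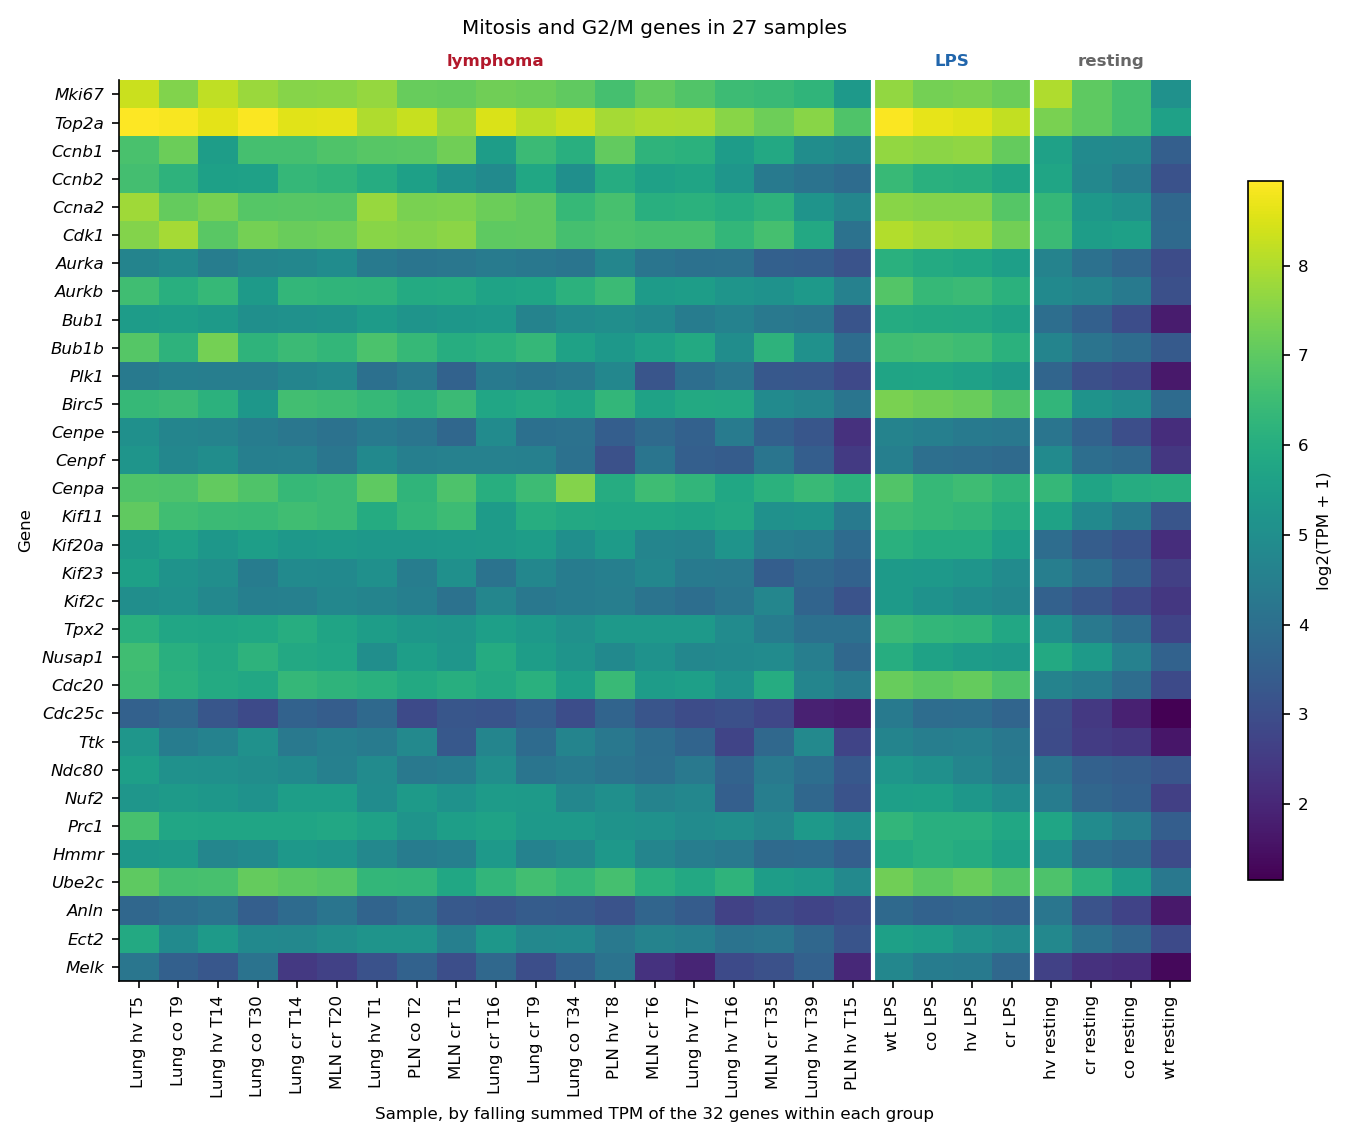
Heat map of log2(TPM + 1) of the 32 genes (rows) in 27 samples (columns), with the groups in the order lymphoma, LPS and resting and the samples of each group by falling summed TPM. Columns of LPS-treated cells look alike, lymphoma columns fade toward PLN hv T15, and resting columns darken toward wt.

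Erythroid transcripts ran in the same direction as the members among resting cells. The sum of 17 measured erythroid markers (Ahsp of the list was not measured) was 18.5 to 1141 TPM in lymphomas, 178, 1923, 1421 and 2223 TPM in LPS-treated wt, cr, co and hv cells and 11847, 111341, 56924 and 113259 TPM in resting ones. Klf1 and Gata1, transcription factors of red cell precursors, were under 1 TPM in LPS-treated cells, with Gata1 at 0 in wt and co, and had 5.74, 25.8, 25 and 73.8 TPM and 1.54, 9.11, 7.76 and 21 TPM in resting wt, cr, co and hv cells. The members' sum, Klf1 and Gata1 thus all had the order wt, co, cr, hv, from lowest to highest. A list of 7 erythroid progenitor markers summed to 40.7 to 618 TPM in lymphomas, 160.0 to 257 TPM in LPS-treated cells and 88.1, 252, 166 and 461 TPM in resting wt, cr, co and hv cells. Tfrc, the transferrin receptor that other dividing cells also carry, made up most of this sum in LPS-treated cells (153 to 250.3 TPM). It did so in resting cells as well, with 70.5, 172, 105 and 288 TPM in wt, cr, co and hv. Klf1 and Gata1 are in both the erythroid and the erythroid progenitor list. Macrophage markers summed to 7.95 to 142 TPM in lymphomas, 6.74 to 23.1 TPM in LPS-treated cells and 153 to 984 TPM in resting cells, and neutrophil and myeloid precursor markers to 0.439 to 288, 0.233 to 14.8 and 14 to 632 TPM in these groups. The part of these cells in the members' level was not tested. Each genotype had only 1 resting sample, so genotype and erythroid RNA cannot be told apart among resting cells.

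The 20 S phase genes, whose products copy DNA, summed to 758 to 3363 TPM in lymphomas, 1717 to 3059 TPM in LPS-treated cells and 546, 627, 654 and 746 TPM in resting wt, cr, co and hv cells, a narrower range among resting cells than that of the members. Within genotype, LPS-treated cells held 9.12-fold the members' sum of resting cells in wt, 2.36-fold in cr, 3.84-fold in co and 1.80-fold in hv. For the S phase sum these folds were 5.60 in wt, 2.74 in cr, 4.27 in co and 3.44 in hv. Each is 1 sample over 1 sample, with no replicate check. All 32 members were higher under LPS in wt and co, 30 in cr and 28 in hv; the exceptions were Mki67, Cenpf, Nusap1 and Anln in hv and Cenpf and Nusap1 in cr. With TPM scaled by median-of-ratios factors or rescaled without Gm20594, Gm10800 and haemoglobin genes, 26 were higher in hv.

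**Figure D2:**
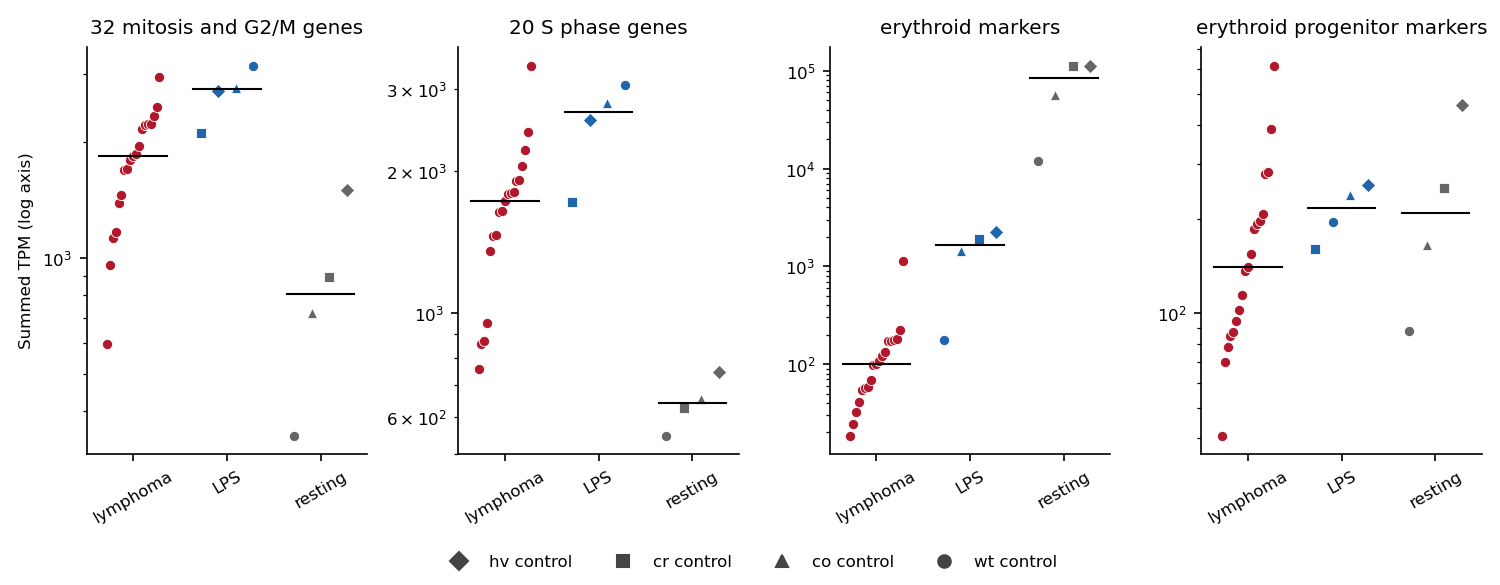
Summed TPM (log axes, each with its own range) of the 32 mitosis and G2/M genes, 20 S phase genes, erythroid markers and erythroid progenitor markers in lymphomas, LPS-treated and resting cells, where a point is a sample, a line the group median and the marker shape the genotype of a control. Resting points spread from 346 to 1498 TPM for the 32 genes but from 546 to 746 TPM for S phase genes, and lie far above the other groups for erythroid markers.

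In the sentences that follow, values of LPS-treated and of resting cells are in the order wt, cr, co and hv, and fold changes are log2 differences on the log2(TPM + 1) scale with their standard error, fitted by limma. Mki67, the chromosome surface protein behind the Ki-67 stain, measured 39.8 TPM in the lowest, 138 TPM in the middle and 318 TPM in the highest lymphoma, 202, 145, 157 and 163 TPM in LPS-treated cells and 33.5, 128, 98.3 and 259.6 TPM in resting cells. Resting hv had more Mki67 than any LPS-treated sample, and resting wt less than any lymphoma, so the groups overlapped. Mki67 differed by 0.43 ± 0.41 in lymphomas over resting cells, -0.26 ± 0.34 in lymphomas over LPS-treated cells and 0.69 ± 0.54 in LPS-treated over resting cells, with adjusted p of 0.445, 0.661 and 0.31. For Top2a, the topoisomerase that untangles chromosomes, the lymphomas ranged from 109 to 489.9 TPM around a median of 278 TPM, with 473, 301, 402 and 376 TPM in LPS-treated cells and 48.2, 128, 99.2 and 165 TPM in resting cells. Here all LPS-treated samples stood above all resting ones. Top2a was 1.92 ± 0.34 higher in LPS-treated than in resting cells (adjusted p = 0.000717) and 1.47 ± 0.32 higher in lymphomas than in resting cells (adjusted p = 0.00117). The 2 proliferation markers thus gave different calls.

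Cyclin and CDK1 genes rose in LPS-treated over resting cells, as Top2a did. The lymphomas held 15.9 (lowest), 129 (median) and 236 (highest) TPM of Cdk1, the kinase that starts mitosis, where LPS-treated cells held 262, 154, 236 and 225 TPM and resting cells 13.1, 43.6, 47.1 and 87.8 TPM. Ccnb1, cyclin B1, spanned 25.8 to 151 TPM in the lymphomas with a median of 87.9 TPM, against 204, 135, 191 and 199 TPM in LPS-treated cells and 10.3, 28.7, 27.3 and 47.9 TPM in resting cells. No LPS-treated sample overlapped a resting one for either gene, and the lymphoma range overlapped both groups. In LPS-treated over resting cells Ccnb1 rose by 2.79 ± 0.39 and Cdk1 by 2.42 ± 0.51, and in lymphomas over resting cells by 1.56 ± 0.40 and 1.52 ± 0.46. In lymphomas Ccnb1 was -1.23 ± 0.37 against LPS-treated cells (adjusted p = 0.0261), whereas Cdk1, at -0.90 ± 0.41, was not called (adjusted p = 0.151). Ccna2, cyclin A2, active from S phase on, measured 25.6 TPM in the lowest, 118 TPM in the middle and 226 TPM in the highest lymphoma, 186, 117, 179 and 178 TPM in LPS-treated cells and 12.4, 38.8, 33.2 and 80.9 TPM in resting cells. For Ccnb2, cyclin B2, the lymphomas ranged from 13.9 to 96.3 TPM around a median of 47.9 TPM, with 84.1, 52.2, 67.5 and 64.5 TPM in LPS-treated cells and 7.62, 26.6, 20.9 and 51.7 TPM in resting cells. LPS cr lay apart from the other LPS-treated cells for Ccna2. The lymphomas held 2.36 (lowest), 8.23 (median) and 13.2 (highest) TPM of Cdc25c, the phosphatase that activates CDK1, where LPS-treated cells held 19.3, 11.9, 14.2 and 14.7 TPM and resting cells 1.23, 4.41, 2.63 and 6.81 TPM. Cdc25c rose by 1.88 in LPS-treated and 1.03 in lymphomas over resting cells and was -0.85 in lymphomas against LPS-treated cells. Ccna2 rose by 2.22 and 1.56 in these comparisons with resting cells, and Ccnb2 by 1.55 in LPS-treated cells, but in lymphomas its 0.95 ± 0.42 was not called (adjusted p = 0.0845).

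Among the roles with several genes, the 4 mitotic kinases had the largest median difference between lymphomas and LPS-treated cells, -1.34 on the log2 scale. Aurka, Aurora A, which matures centrosomes, spanned 7.89 to 29.8 TPM in the lymphomas with a median of 18.3 TPM, against 67.1, 45.5, 58.7 and 55 TPM in LPS-treated cells and 6.78, 15.6, 12.4 and 23.7 TPM in resting cells. Plk1, the polo-like kinase of spindle assembly, measured 6.27 TPM in the lowest, 18.7 TPM in the middle and 27.1 TPM in the highest lymphoma, 50.7, 41.6, 52.6 and 47.7 TPM in LPS-treated cells and 2.2, 7.38, 6.29 and 12 TPM in resting cells. The highest lymphoma was below the lowest LPS-treated sample for both genes. Aurka was -1.56 ± 0.25 in lymphomas against LPS-treated cells (adjusted p = 9.33e-05) and Plk1 -1.52 ± 0.28 (adjusted p = 0.000637). Against resting cells, lymphomas differed in Plk1 by 1.26 ± 0.33 (adjusted p = 0.00456) and in Aurka by 0.43 ± 0.28 (adjusted p = 0.234), so the call was made for Plk1 but not for Aurka. For Aurkb, Aurora B, the kinase of the chromosomal passenger complex, the lymphomas ranged from 22.7 to 92.6 TPM around a median of 59.6 TPM, with 115, 69.5, 82.3 and 87.8 TPM in LPS-treated cells and 7.34, 24.3, 19.4 and 28 TPM in resting cells. The lymphomas held 2.94 (lowest), 7.71 (median) and 17.5 (highest) TPM of Melk, a kinase abundant in dividing cells, where LPS-treated cells held 26.1, 12.7, 20.5 and 19.6 TPM and resting cells 1.5, 3.81, 3.39 and 5.32 TPM. All LPS-treated cells held more of both than any resting sample. Aurkb rose by 2.23 ± 0.36 and Melk by 2.24 ± 0.29 in LPS-treated over resting cells. Lymphomas were -0.66 ± 0.27 against LPS-treated cells for Aurkb (adjusted p = 0.106) and -1.15 ± 0.34 for Melk (adjusted p = 0.0254). Birc5, survivin, a passenger complex partner of Aurora B, spanned 17.2 to 95.9 TPM in the lymphomas with a median of 59.3 TPM, against 165, 109, 150.1 and 144 TPM in LPS-treated cells and 13.6, 34.4, 29.8 and 76.5 TPM in resting cells. Survivin was lower in every lymphoma than in every LPS-treated sample, with a log2 difference of -1.29 ± 0.33 (adjusted p = 0.00989), while its 0.80 ± 0.38 against resting cells was not called (adjusted p = 0.11).

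The 3 spindle checkpoint genes had the largest median changes of any role with several genes against resting cells, 1.84 in lymphomas and 2.44 in LPS-treated cells. Bub1b, BUBR1, which inhibits CDC20, measured 14 TPM in the lowest, 72.4 TPM in the middle and 157 TPM in the highest lymphoma, 92.6, 69, 97.9 and 90.6 TPM in LPS-treated cells and 9.23, 16.9, 14 and 24.3 TPM in resting cells. For Bub1, the kinase that recruits it to kinetochores, the lymphomas ranged from 8.07 to 45.3 TPM around a median of 32 TPM, with 60.9, 49.2, 58 and 57.3 TPM in LPS-treated cells and 2.35, 10.6, 6.93 and 14.6 TPM in resting cells. The lymphomas held 5.78 (lowest), 19.9 (median) and 37 (highest) TPM of Ttk, the checkpoint kinase MPS1, where LPS-treated cells held 24.6, 18.4, 21.4 and 22.6 TPM and resting cells 2.09, 4.77, 4.4 and 6.66 TPM. All LPS-treated samples exceeded all resting ones in the 3 genes. Bub1b rose by 1.96 ± 0.39 in lymphomas (adjusted p = 0.000424), Bub1 by 1.84 ± 0.34 and Ttk by 1.83 ± 0.36, against 2.44 ± 0.25, 2.78 ± 0.42 and 2.12 ± 0.25 in LPS-treated cells. Between lymphomas and LPS-treated cells Bub1 differed by -0.94 ± 0.28 (adjusted p = 0.028), and the differences of -0.48 ± 0.38 for Bub1b and -0.29 ± 0.34 for Ttk were not called (adjusted p = 0.429 and 0.626).

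The 5 kinetochore and centromere genes held some of the smallest changes, with a median of 0.79 in lymphomas and 1.19 in LPS-treated cells over resting cells. Cenpa, the histone H3 variant of centromeres, spanned 54.8 to 179 TPM in the lymphomas with a median of 86.7 TPM, against 112, 74.9, 81.8 and 90.9 TPM in LPS-treated cells and 64.1, 50.7, 62.6 and 80.2 TPM in resting cells. Cenpf, a large kinetochore and nuclear matrix protein, measured 4.58 TPM in the lowest, 21.7 TPM in the middle and 36 TPM in the highest lymphoma, 21.7, 13.4, 15.1 and 14.2 TPM in LPS-treated cells and 4.39, 14.6, 13.1 and 28.5 TPM in resting cells. For Cenpe, a kinetochore motor, the lymphomas ranged from 3.85 to 32.5 TPM around a median of 15.9 TPM, with 24, 18.3, 22.1 and 19.3 TPM in LPS-treated cells and 3.56, 11.2, 7.18 and 17.2 TPM in resting cells. Resting wt had more Cenpa than resting cr, the reverse of its place for the members' sum, and resting hv more Cenpf than any LPS-treated sample. In LPS-treated over resting cells Cenpa rose by 0.48 ± 0.19 (adjusted p = 0.0492, a call lost in 10 of 17 alternatives) and Cenpe by 1.19 ± 0.37 (adjusted p = 0.0187), and Cenpf was not called at 0.30 ± 0.46 (adjusted p = 0.599). None of the 3 was called in lymphomas against resting cells, with 0.49 for Cenpa, 0.79 for Cenpe and 0.42 for Cenpf, nor against LPS-treated cells, with 0.02, -0.40 and 0.12. The lymphomas held 8.76 (lowest), 19.8 (median) and 45.7 (highest) TPM of Ndc80, the microtubule-binding core of the kinetochore, where LPS-treated cells held 37, 19, 32.7 and 24.8 TPM and resting cells 8.24, 10.8, 10.02 and 16.3 TPM. Nuf2, its partner, spanned 7.78 to 45.2 TPM in the lymphomas with a median of 34 TPM, against 46, 29.9, 46.4 and 37.8 TPM in LPS-treated cells and 5.19, 12.2, 10.6 and 20.6 TPM in resting cells. Both rose, by 1.25 ± 0.24 and 1.76 ± 0.33 in LPS-treated and by 0.88 ± 0.29 and 1.29 ± 0.37 in lymphomas over resting cells.

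Spindle motors and microtubule binders varied from large changes to none called. Kif20a, a motor of the central spindle, measured 13.6 TPM in the lowest, 38.6 TPM in the middle and 48.3 TPM in the highest lymphoma, 68.2, 45.9, 60.3 and 60.1 TPM in LPS-treated cells and 3.51, 9.88, 8.08 and 14.4 TPM in resting cells. For Kif11, the motor that separates spindle poles, the lymphomas ranged from 19.5 to 131 TPM around a median of 60.9 TPM, with 89.7, 61.7, 81.4 and 76.9 TPM in LPS-treated cells and 8.34, 27.9, 19.6 and 48.6 TPM in resting cells. The lymphomas held 10.2 (lowest), 21.9 (median) and 46.8 (highest) TPM of Kif23, a motor of the central spindle and midbody, where LPS-treated cells held 41.4, 29.3, 39.2 and 35.9 TPM and resting cells 5.2, 15.2, 10.6 and 21.3 TPM. For all 3, LPS-treated cells lay above resting cells, and Kif20a changed most: 2.70 ± 0.33 in LPS-treated over resting cells, 1.92 ± 0.28 in lymphomas over resting cells (adjusted p = 9.92e-06) and -0.77 ± 0.24 in lymphomas against LPS-treated cells (adjusted p = 0.0325). Kif2c, a microtubule depolymerase, spanned 7.85 to 33.1 TPM in the lymphomas with a median of 21.8 TPM, against 41.6, 26.4, 33.8 and 29.4 TPM in LPS-treated cells and 4.38, 8.39, 6.36 and 11 TPM in resting cells. Prc1, which bundles microtubules, measured 25.6 TPM in the lowest, 40.6 TPM in the middle and 101 TPM in the highest lymphoma, 77.5, 55, 66.6 and 65.6 TPM in LPS-treated cells and 10.2, 28.8, 21.4 and 52.7 TPM in resting cells. For Tpx2, the activator of Aurora A, the lymphomas ranged from 15.2 to 67.3 TPM around a median of 39.99 TPM, with 88.1, 55.7, 78.2 and 74.8 TPM in LPS-treated cells and 5.66, 18.8, 13.9 and 31.6 TPM in resting cells. Their changes over resting cells were 2.03, 1.41 and 2.22 in LPS-treated cells and 1.38, 0.79 and 1.29 in lymphomas, all called, as were 1.76 and 1.55 (LPS-treated) and 1.45 and 0.89 (lymphomas) for Kif11 and Kif23. Without resting wt, Prc1 came to 0.40 (adjusted p = 0.341) and Kif23 to 0.55 (adjusted p = 0.237) in lymphomas over resting cells. In lymphomas against LPS-treated cells Tpx2 was lower, at -0.93 ± 0.29 (adjusted p = 0.0358). The lymphomas held 10.5 (lowest), 25.5 (median) and 41.6 (highest) TPM of Hmmr, a microtubule-binding protein of spindle poles, where LPS-treated cells held 59.6, 48.3, 65.8 and 60.1 TPM and resting cells 6.72, 15, 13.2 and 29.8 TPM. Nusap1, which binds spindle microtubules near chromosomes, spanned 12.8 to 92.8 TPM in the lymphomas with a median of 37.1 TPM, against 63.7, 40.2, 48.7 and 43.3 TPM in LPS-treated cells and 11.2, 41.1, 22.9 and 58.3 TPM in resting cells. Hmmr, but not Nusap1, was lower in all lymphomas than in all LPS-treated cells, with a log2 difference of -1.18 ± 0.27 (adjusted p = 0.00476). Nusap1 was not called in any of the 3 comparisons, with 0.75 ± 0.45 in LPS-treated over resting cells, where resting hv and LPS cells overlapped, 0.47 ± 0.38 in lymphomas over resting cells and -0.28 ± 0.33 in lymphomas against LPS-treated cells.

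Exit and cytokinesis genes differed from one another. Cdc20, the activator of the anaphase-promoting complex, measured 20.2 TPM in the lowest, 59.1 TPM in the middle and 88.4 TPM in the highest lymphoma, 141, 108, 126 and 137 TPM in LPS-treated cells and 6.55, 20.7, 14.3 and 24.1 TPM in resting cells. For Ube2c, its ubiquitin-conjugating enzyme, the lymphomas ranged from 27.3 to 138 TPM around a median of 77.8 TPM, with 153, 116, 125 and 141 TPM in LPS-treated cells and 18.3, 70.2, 43.7 and 108 TPM in resting cells. Cdc20 changed most of all members in LPS-treated over resting cells, by 3.02 ± 0.33 (adjusted p = 3.7e-05), and Ube2c by 1.40 ± 0.47 (adjusted p = 0.032). In lymphomas Cdc20 was 1.81 ± 0.31 over resting cells and -1.21 ± 0.28 against LPS-treated cells (adjusted p = 9.69e-05 and 0.00397), and every lymphoma was below every LPS-treated sample. Ube2c was not called in lymphomas, at 0.61 ± 0.36 over resting and -0.78 ± 0.30 against LPS-treated cells (adjusted p = 0.201 and 0.0825). The lymphomas held 5.53 (lowest), 9.74 (median) and 17 (highest) TPM of Anln, anillin, a scaffold of the contractile ring, where LPS-treated cells held 13.2, 10.9, 11.1 and 12 TPM and resting cells 2.23, 7.94, 5.63 and 17.4 TPM. Ect2, the exchange factor that sets up the cleavage furrow, spanned 8.07 to 57.5 TPM in the lymphomas with a median of 26.7 TPM, against 46.4, 28.5, 43.3 and 33.5 TPM in LPS-treated cells and 6.49, 15.6, 12 and 26.8 TPM in resting cells. Anln was not called in any comparison, and resting hv had the most Anln of all controls. Ect2 rose by 1.39 ± 0.36 in LPS-treated over resting cells, and its 0.84 ± 0.34 in lymphomas was not called (adjusted p = 0.0595).

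Counted over LPS-treated against resting cells, 28 of the 32 members were higher and none lower at an adjusted p under 0.05, beside 25.2% of the 11999 genes tested that were higher and 33.0% lower. That balance moved with the scaling and the libraries: over all genes 3026 were higher and 3955 lower, against 3953 and 3895 under median-of-ratios scaling, 2981 and 5219 when rescaled without Gm20594, Gm10800 and haemoglobin genes, and 3071 and 2460 without the libraries above 1% Gm10800. The median change was 1.94 over members and -0.16 over all genes. All 32 estimates were positive; the 4 not called were Mki67, Cenpf, Nusap1 and Anln. Cenpa, Ccnb2, Ube2c, Cenpe and Prc1 each lost the call in at least 1 of the 8 fits that left out a control library, and without resting wt Ube2c came to 0.93. In 27 members every LPS-treated sample stood above every resting one, beside 22.8% of all genes. The other 64 mitotic genes of a wider list gave 53 higher and 3 lower. Trip13, which turns off the checkpoint, had 42 ± 9.48 TPM in LPS-treated and 3.03 ± 0.706 TPM in resting cells (SD, n = 4 each), a change of 3.4 ± 0.21. Cep55, a midbody protein, and Cks1b, a CDK-binding protein, rose by 2.78 ± 0.22 and 2.59 ± 0.37. The 3 that fell were Ncapd2, a condensin subunit, Cdc25b, a CDK phosphatase, and Pttg1, securin. Ncapd2 had 371 ± 90.4 TPM in LPS-treated and 1395 ± 285 TPM in resting cells (SD). The condensin subunits Ncapg and Ncaph had means of 58.6 and 44.1 TPM in LPS-treated and 14.3 and 13.6 TPM in resting cells. What sets Ncapd2 so far above them was not tested.

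In lymphomas against resting cells, 20 of 32 members were higher and none lower, beside 14.5% of 13239 genes higher and 17.4% lower. The median change was 1.06 over members and -0.06 over all genes, and all 32 estimates were positive. Not called were Mki67, Ccnb2, Aurka, Birc5, Cenpe, Cenpf, Cenpa, Nusap1, Hmmr, Ube2c, Anln and Ect2. The lymphomas overlapped the resting cells in all 32 members, so 0 were higher with no overlap, beside 4.00% of genes that were higher and 4.92% that were lower with none. Much of the count turned on 1 library, resting wt, the resting sample with the least erythroid RNA and a Gm10800 share of 3.65%. This library was also the only wt one among resting cells, so genotype, erythroid RNA and Gm10800 share cannot be told apart in it. Without it 8 members were called (beside 10.4% of genes higher), with a median of 0.79 over members. Of the libraries above 1% Gm10800 this fit held only resting wt and MLN cr T6. Without both, 9 members were called (beside 10.7%), with a median of 0.83. Ccna2, Ccnb1, Cdc25c, Cdk1, Kif11, Kif23, Melk, Ndc80, Nuf2, Plk1, Prc1 and Tpx2 lost their call without resting wt, and Cdk1 came to 1.02. Of the wider mitotic list 43 were higher and 2 lower, led by Cks1b at 2.36 ± 0.41, Trip13 at 1.97 ± 0.32 and Racgap1, a central spindle protein, at 1.93 ± 0.26. Fzr1, the APC activator that keeps cells in G1, and Pttg1 were the 2 that fell; Fzr1 had 21.8 ± 4.44 TPM in lymphomas (n = 19) and 46.5 ± 23.9 TPM in resting cells (n = 4), where its 21.6, 68.6, 30.7 and 65.3 TPM in wt, cr, co and hv were highest in the cr and hv samples richest in erythroid RNA. The part of that RNA in this change was not tested.

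Lymphomas against LPS-treated cells gave 11 members lower and 0 higher, beside 8.56% of 12880 genes lower and 5.27% higher. Those lower were Aurka, Plk1, Birc5, Ccnb1, Cdc20, Hmmr, Melk, Bub1, Tpx2, Cdc25c and Kif20a. Only Aurka and Plk1 kept the call in all 15 alternatives. Cdc25c lost it in 11, Tpx2 in 7, Ccnb1 and Melk in 6 each, and Bub1 and Kif20a in 5 each. Birc5, Cdc20 and Hmmr lost it in 1 each. Leaving out LPS wt and keeping only transgenic samples gave the same fit, which these counts hold under both names. In 6 of the 11 lower members, Aurka, Bub1, Plk1, Birc5, Cdc20 and Hmmr, no lymphoma reached any LPS-treated sample, beside 2.05% of all genes. The median change was -0.65 over members and 0.03 over all genes. Unadjusted p was under 0.05 in 17 members, all lower, beside 15.6% of all genes that were lower. The count of lower calls was 5 without LPS wt, without LPS co or without LPS hv (beside 5.05%, 4.16% and 3.97% of genes), with medians of -0.54, -0.62 and -0.64 over members. The libraries of this fit above 1% Gm10800 were LPS cr, LPS hv and MLN cr T6. Without them only LPS wt and LPS co were left of the LPS-treated cells. The count of lower calls was then 2 (beside 2.68%), while the median over members was -0.80. Of the wider mitotic list 9 were lower and 1 higher. Trip13 was -1.44 ± 0.32, Spc24, a kinetochore protein, -1.10 ± 0.31, and Ncapd2 1.39 ± 0.32. Ncapd2 had 1040 ± 435 TPM in lymphomas (SD, n = 19), where Ncapg and Ncaph had means of 44.9 and 37.9 TPM. The comparisons with resting and with LPS-treated cells use the same 19 lymphomas, and both comparisons with resting cells the same 4 resting samples.

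**Figure D3:**
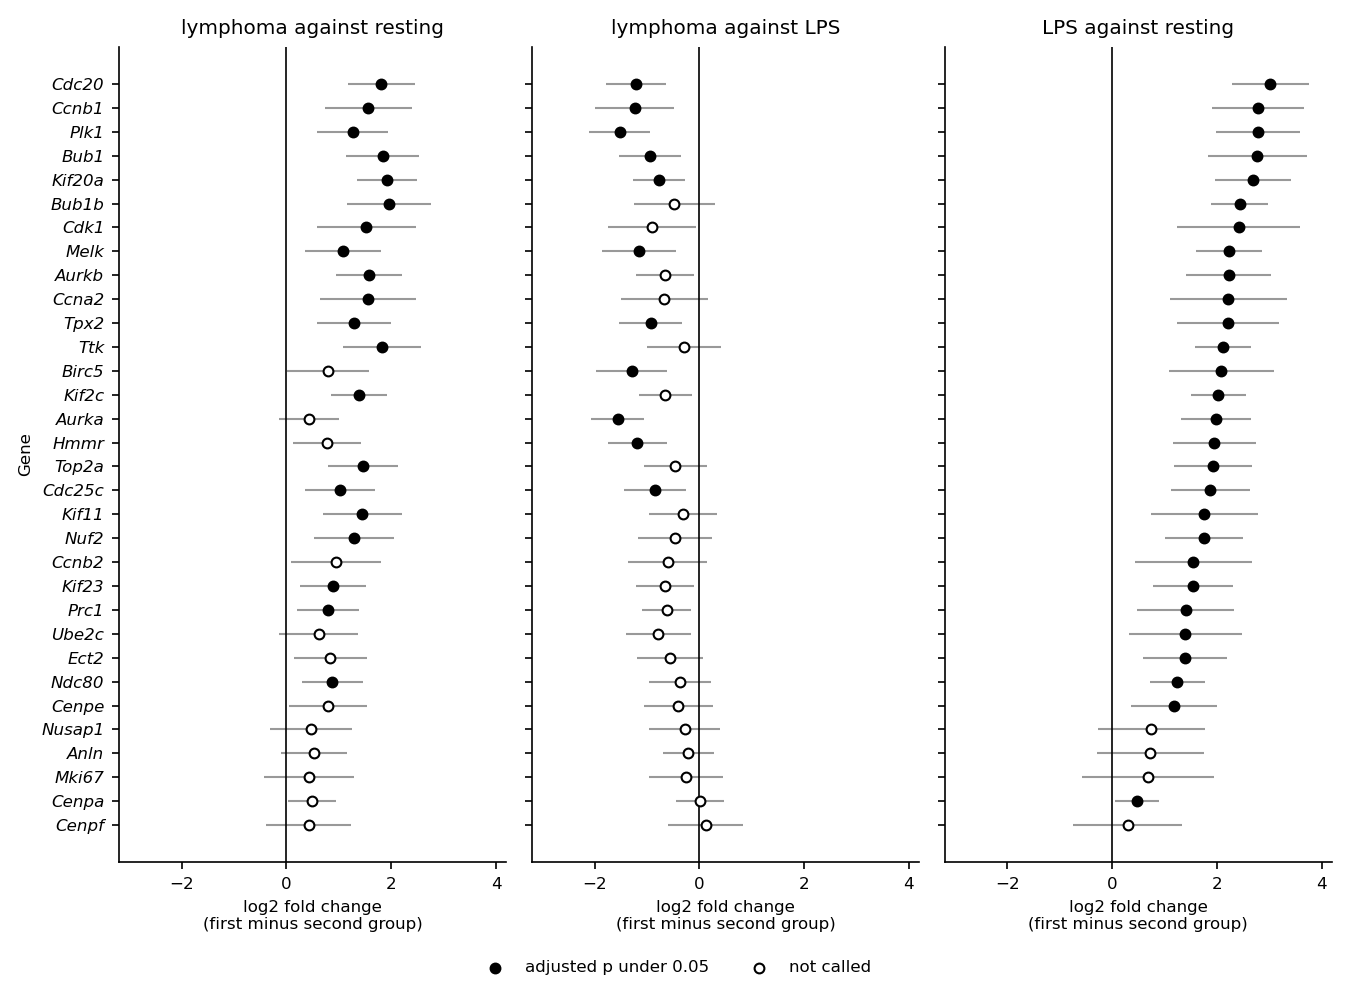
Log2 fold change of each member with its 95% confidence interval in lymphomas against resting cells, lymphomas against LPS-treated cells and LPS-treated against resting cells, by falling change in the last. Filled points have an adjusted p under 0.05; 20, 11 and 28 of 32 are filled, and Cenpf, Cenpa, Mki67, Anln and Nusap1 stand lowest in the right panel.

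Of 22 regulators of this gene set, 9 were higher and 5 lower in LPS-treated over resting cells (beside 25.2% and 33.0% of all genes), 5 and 1 in lymphomas over resting cells (beside 14.5% and 17.4%), and 0 and 2 in lymphomas against LPS-treated cells (beside 5.27% and 8.56%). Mybl2, the B-MYB activator, had 93.8, 44.5, 72.5 and 65.2 TPM in LPS-treated wt, cr, co and hv cells and 4.62, 10.4, 9.75 and 13.2 TPM in resting ones, with 28.5 ± 10.4 TPM in lymphomas (SD, n = 19). It rose by 2.77 ± 0.30 in LPS-treated and 1.47 ± 0.31 in lymphomas over resting cells, and was -1.30 ± 0.30 in lymphomas against LPS-treated cells (adjusted p = 0.00442). Foxm1 had 22.6, 14.8, 12 and 13.9 TPM in LPS-treated and 4.68, 13.7, 7.12 and 12.9 TPM in resting wt, cr, co and hv cells; its change of 0.73 ± 0.31 was not called (adjusted p = 0.0655). In lymphomas, at 20.2 ± 8.31 TPM, Foxm1 rose by 0.99 ± 0.33 over resting cells (adjusted p = 0.0256). Lin9, the core of the complex, rose by 0.52 ± 0.17 in LPS-treated cells and 0.77 ± 0.28 in lymphomas over resting cells. Rbl2, the p130 repressor of resting cells, fell to 11.6 ± 2.22 TPM in LPS-treated cells, against 25.1 ± 7.49 TPM in resting cells (adjusted p = 0.00146), and was -0.51 ± 0.29 in lymphomas, which was not called (adjusted p = 0.17). Of the E2F partners, Tfdp1 rose by 2.59 ± 0.28 in LPS-treated cells and 2.02 ± 0.26 in lymphomas over resting cells. Tfdp2 fell to 19.3 ± 9.66 TPM in lymphomas and 8.09 ± 0.858 TPM in LPS-treated cells, against 111 ± 77.7 TPM in resting cells, where its 28.1, 166, 61.5 and 187 TPM in wt, cr, co and hv had the same order as Klf1 and Gata1. The part of erythroid RNA in this change was not tested. E2f4, a repressor E2F, was the other regulator lower in lymphomas than in LPS-treated cells, at -0.85 ± 0.18, and Cdkn1a, the p21 inhibitor, was not called at -0.88 ± 0.47 (adjusted p = 0.225).

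Of the 20 S phase genes, 19 were higher in LPS-treated and 17 in lymphomas over resting cells, beside 25.2% and 14.5% of all genes. In lymphomas against LPS-treated cells 4 were lower, beside 8.56% of genes, and none was called the other way in any comparison. These counts were not repeated with single control libraries left out. Mcm10, a replication initiation factor, rose by 2.98 ± 0.28 in LPS-treated and 1.99 ± 0.32 in lymphomas over resting cells, and Uhrf1, which keeps DNA methylation through replication, by 2.79 ± 0.32 and 2.00 ± 0.32. Gins2, a helicase subunit, rose by 2.65 ± 0.31 and 1.94 ± 0.35 in the same comparisons. Rrm2 and Tyms, which make deoxynucleotides, were -1.75 ± 0.33 and -1.14 ± 0.37 in lymphomas against LPS-treated cells, and Cdc6, the origin licensing factor, -0.99 ± 0.33.

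The 32 genes did not scale alike, which shows when each is given as a share of the members' summed TPM. These genes were picked after the shares were seen, and the shares are a description without a test. Mki67 made up 8.31% ± 1.52 of the sum in lymphomas, 6.25% ± 0.517 in LPS-treated cells and 13.7% ± 3.14 in resting cells (mean and SD in percentage points, n = 19, 4 and 4). Cenpf and Nusap1 were likewise the largest share in resting cells, at 1.05% ± 0.256, 0.599% ± 0.0757 and 1.66% ± 0.282 for Cenpf and 2.38% ± 0.483, 1.82% ± 0.181 and 3.73% ± 0.661 for Nusap1, in the same order of groups. Ccnb1 and Cdc20 went the other way: Ccnb1 was 4.76% ± 1.6 in lymphomas, 6.79% ± 0.460 in LPS-treated and 3.29% ± 0.345 in resting cells, and Cdc20 3.29% ± 0.796, 4.8% ± 0.340 and 1.95% ± 0.287. Aurka separated the groups without overlap, at 0.823 to 1.51% in lymphomas, 2.04 to 2.15% in LPS-treated cells and 1.58 to 1.96% in resting cells. For Plk1, at 0.568 to 1.53% in lymphomas, 1.61 to 1.97% in LPS-treated and 0.635 to 0.873% in resting cells, lymphomas overlapped resting cells only.

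**Figure D4:**
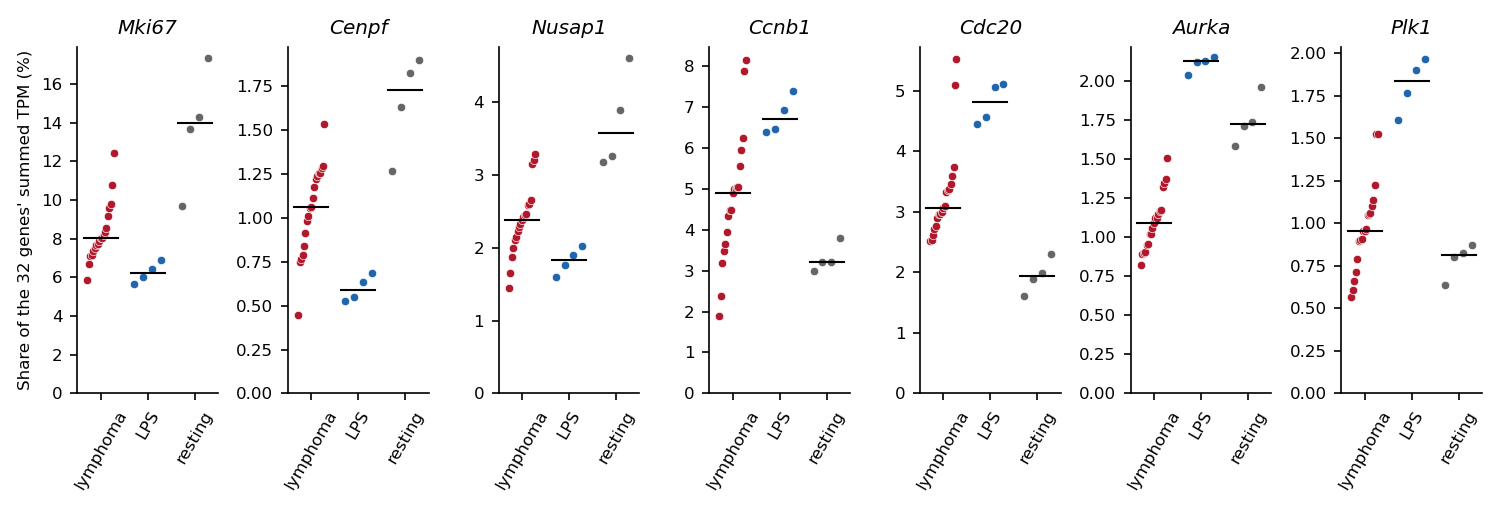
Share of 7 members in the summed TPM of the 32 genes (%, axes from 0), where a point is a sample and a line the group median, for lymphomas, LPS-treated and resting cells. By median, Mki67, Cenpf and Nusap1 are highest in resting cells, Ccnb1 and Cdc20 lowest there, and Aurka is lowest in lymphomas.

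Transcript choice within a member was compared as the share of its leading transcript, the one with the highest mean TPM, by exact two-sided permutation over samples with adjustment over all genes tested. Between LPS-treated and resting cells no member of 17 passed, beside 0% of 5566 genes; unadjusted p was 0.0286, the smallest possible, in 7 of 17 members, beside 40.9% of genes under 0.05. Between lymphomas and LPS-treated cells 2 of 21 members passed, beside 13.9% of 4801 genes. The leading Bub1b transcript made up 81.0% ± 6.72 of the gene in lymphomas (SD, n = 19) and 94.7% ± 1.43 in LPS-treated cells (n = 4; exact permutation, adjusted p = 0.0150). For Cenpa the leading transcript made up 24.6% ± 7.04 in lymphomas and 36.3% ± 5.28 in LPS-treated cells (n = 19 and 4; exact permutation, adjusted p = 0.0437). Without LPS cr 1 member passed, and without LPS co or LPS hv 0 passed.

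Between the lymphoma lines and sites no member was called. The fit held 7 hv, 7 cr and 4 co lymphomas, 7 of lymph nodes and 11 of lung, with line and site as terms. The members' sum was 2083 ± 333 TPM in co, 1757 ± 792 TPM in hv and 1786 ± 392 TPM in cr lymphomas (SD). Median changes were -0.25 for hv against cr, 0.29 for co against hv and 0.02 for co against cr (-0.10 under median-of-ratios scaling), with adjusted calls in 0 of 32 members each, beside 0%, 0% and 0.00801% of 12480 genes. At an unadjusted p under 0.05 there was 1 member (Nuf2, at -0.72) in hv against cr, beside 9.13% of genes, and 0 in both comparisons of co, beside 3.44% against hv and 7.70% against cr. Lymph node lymphomas had 1555 ± 549 TPM and lung lymphomas 2023 ± 508 TPM. Members had a median change of -0.42 in node against lung, negative in 31 of 32, with no adjusted call (beside 0.0160% of genes) and 8 under an unadjusted p of 0.05 (beside 5.78%): Mki67, Top2a, Cenpe, Cenpf, Tpx2, Nusap1, Ndc80 and Ube2c.

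The style in which sample names were written goes with site and with the members' level. 9 names run together (joined style), all of lung, and 10 are separated by marks, and all node samples are among the separated ones. The members' sum was 1440.3 ± 495 TPM in the separated-style and 2188 ± 388 TPM in the joined-style lymphomas (SD, n = 10 and 9). Separated-style against joined-style lymphomas differed by a median of -0.57 with site and line as terms, and by -0.83 within lung lymphomas with line as a term. In both fits Lung hv T16 and Lung hv T7 were the only separated-style lung lymphomas. All cr and co lung names are joined, so the -0.83 compares them with Lung hv T1, Lung hv T5 and Lung hv T14. All 32 estimates were negative in both fits and 0 members passed the adjustment. At an unadjusted p under 0.05 there were 5 and 20 members, beside 6.50% and 13.5% of genes. The median over all genes was -0.23 and -0.24 in these fits. With style as a further term, node against lung had a median of 0.07 over members and over all genes, and 0 members under an unadjusted p of 0.05. Inferred depth went with style too. It was 18500000 to 23690000 read pairs in joined-style lymphomas and 11530000 to 20210000 in separated-style ones. The part of depth in these differences was not tested. The labels do not say what the style stands for, and in node samples style and site cannot be told apart. Against resting cells 10 members were higher with separated-style lymphomas alone (beside 9.75% of genes) and 29 with joined-style ones alone (beside 19.5%).

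**Figure D5:**
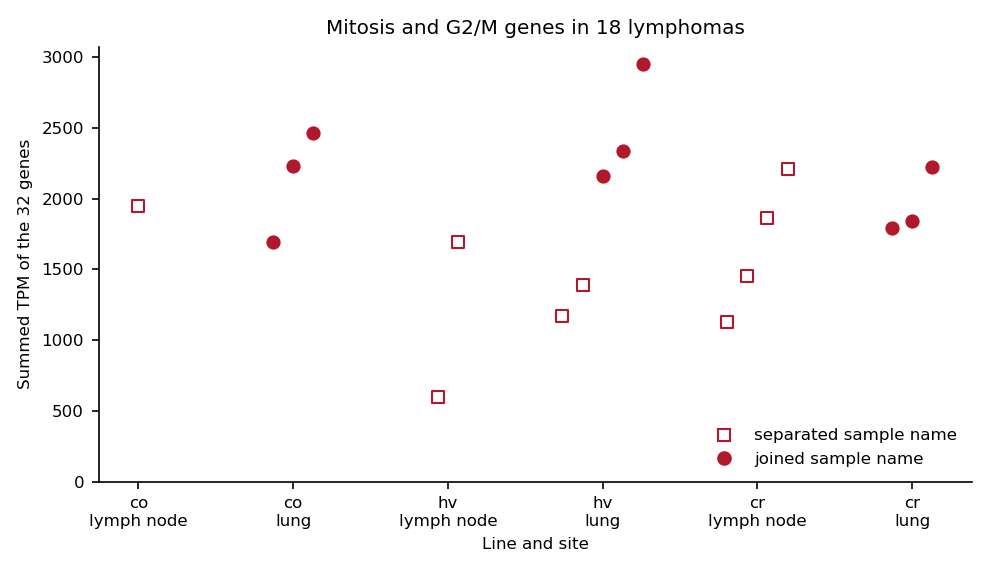
Summed TPM of the 32 genes in 18 lymphomas by line and site, where a point is a lymphoma, open squares have a separated sample name and filled circles a joined one. In hv lung lymphomas both separated names lie below the 3 joined ones, and PLN hv T15, at 597 TPM, is the lowest of all.

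Among the 19 lymphomas 4 pairs of genes were compared on the log2(TPM + 1) scale, and each p comes from 100000 permutations and is adjusted over these 4 relations. Mki67 and Top2a varied together (Pearson r = 0.896, adjusted p = 4e-05, from the smallest p that permutations can give; Spearman rho = 0.897, adjusted p = 4e-05), and r was 0.824 without the 2 samples farthest from the median. Within styles r was 0.921 in separated-style (permutation, adjusted p = 0.00128, n = 10) and 0.530 in joined-style lymphomas (permutation, adjusted p = 0.582, n = 9). Ccnb1 and Mybl2 gave r = 0.575 (adjusted p = 0.0190) and rho = 0.560 (adjusted p = 0.0289), with r = 0.368 without 2 samples, MLN cr T35 and PLN hv T15. It was 0.848 in separated-style (permutation, adjusted p = 0.00298, n = 10) and -0.182 in joined-style lymphomas (permutation, adjusted p = 0.765, n = 9), so the relation did not hold within both styles. Plk1 and Foxm1 gave r = 0.448 (adjusted p = 0.0723) and rho = 0.439 (adjusted p = 0.0825), with r = 0.348 without 2 samples; r was 0.188 and 0.202 in the separated and joined styles. Mki67 and Myc, the gene of the transgene's name, gave r = 0.126 (adjusted p = 0.613) and rho = 0.0983 (adjusted p = 0.690), with r = 0.0766 without 2 samples and 0.200 and -0.114 in the separated and joined styles.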

How the data were processed

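Stranded paired-end libraries were made from rRNA-depleted RNA of B220+ B cells, per the labels' protocols. FastQC and kallisto 0.43 (mm10, GRCm38) were used, per the submitters' processing notes; neither the transcript annotation nor the strand setting is known, so reads of overlapping or antisense genes cannot be told apart. TPM of 88198 transcripts were deposited by the authors, together with effective lengths. TPM were summed to 30735 genes, and symbols were matched by Ensembl identifier (740 had none). Read pairs were inferred from TPM steps: 61.2 to 76.4% of low values were whole within 0.02, so they served for depth only; depth limits low values by counting error.

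Groups came from the labels. A gene entered a fit when 4 or more of its samples had a TPM of at least 1, and was tested on log2(TPM + 1), pseudocount 1, with limma 3.58.1 (trend and robust) in R 4.3.3 (data.table, version 1.17.8), each comparison on its own groups. Benjamini-Hochberg adjustment ran over all genes, threshold 0.05. Fold changes on this scale understate those of low genes. All 32 members passed the filter in each of the first 3 comparisons. Lines and sites were fitted on 18 lymphomas. Transcript shares needed 2 or more transcripts and 5 TPM; their adjustment ran over all genes, not over members as first planned. Other work used Python 3.11.15 with numpy 2.4.6, pandas 2.3.3, matplotlib 3.10.9 and scipy 1.17.1, and the tests were tried on simulated data. Alternatives covered pseudocounts, filters, scaling, limma settings, libraries, name styles and a genotype block.

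Members and lists were chosen with earlier results of these data known. Named were 8 core members (Mki67, Top2a, Cdk1, Ccnb1, Plk1, Aurkb, Bub1b, Cdc20), the 2 largest and 2 smallest changes, members not called, the 3 largest changes of each pathway list and 5 regulators (Foxm1, Mybl2, Lin9, Rbl2, Fzr1). The remaining members' values were added, and genes that complete counts of 5 or fewer were named after their values were seen.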

Additional observations from a re-analysis of the deposited data

Results flagged for a closer look

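Each member was looked at in 5 groups of 4 to 7 samples (LPS-treated cells, resting cells, and hv, cr and co lymphomas), 160 tests in all, for a sample whose gap to the nearest other exceeded Dixon's 95% limit. 10 were found, against the 1 in 20 that chance flags: 5 in co lymphomas, 2 each in hv and cr lymphomas, 1 in LPS-treated and 0 in resting cells. Lung co T9 stood above the other co lymphomas in Kif23 (34.4 TPM, the others 20.3 to 20.9), Kif2c (33.1 TPM, the others 20.5 to 22.1) and Cdc25c (12.9 TPM, the others 6.50 to 6.95). PLN co T2 was high in Ect2 (35.6 TPM, the others 27.8 to 28.6) and Lung co T30 in Melk (16.4 TPM, the others 10.6 to 11.1). Among cr lymphomas, Lung cr T16 was high in Cenpe (28.8 TPM, the others 10.6 to 18.1) and Melk (12.9 TPM, the others 3.89 to 7.57). Among hv lymphomas, Lung hv T5 was high in Prc1 (100.8 TPM, the others 29.3 to 52.4) and PLN hv T15 low in Birc5 (17.2 TPM, the others 56.4 to 82.4). LPS cr was low in Ccna2 (117.4 TPM, the others 178 to 186), and this library had the largest Gm10800 share, 18.6%.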

How the results depend on the processing

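Of LPS-treated against resting cells, the 28 higher members came to 26 to 28 under the other pseudocounts, filters, scalings and limma settings and without the libraries above 1% Gm10800, and to 23 to 31 with 1 control library left out. The samples of a genotype deviated together by a correlation of 0.06 to 0.34, not over 0.1 in all 4. Those of unlike genotype did so by -0.40 to 0.30. With 4 samples in each group this cannot show whether the samples of a genotype came from the same animals. With genotype as a block 22 members were called. Lymphomas against resting cells gave 20, and 9 without the libraries above 1% Gm10800, 8 in transgenic samples without the wt control, 10 with separated-style lymphomas only and 8 to 26 with 1 resting library left out. Of lymphomas against LPS-treated cells the 11 lower members became 2 without the libraries above 1% Gm10800 (members' median -0.80, against -0.65 with them). That fit kept only LPS wt and LPS co of the LPS-treated cells. The lower members numbered 5 without the wt control, and 5 to 10 with 1 LPS library left out. In both comparisons of lymphomas, the fit without the wt control is also among those with 1 control library left out. Between 0 and 2 transcript shares passed when 1 LPS library was left out. The cause of these shifts was not tested, apart from fewer samples. The counts of 0 for higher members against LPS-treated cells and for lines and sites stayed at 0 under every alternative run. The all-gene median of LPS-treated against resting cells moved from -0.16 to -0.03 under median-of-ratios scaling and to -0.30 when rescaled without Gm20594, Gm10800 and haemoglobin genes; in lymphomas against resting cells rescaling gave 1514 genes higher and 3225 lower, where 1921 and 2308 had been called.

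Single estimates that changed sign were small and uncalled: Cenpf in LPS-treated against resting cells, at -0.15 without resting wt and up to 0.67 with another control library left out. Against resting cells, lymphomas turned in Mki67 (-0.10 without the libraries above 1% Gm10800, -0.10 without resting wt and in transgenic samples, -0.0088 in the separated style) and Cenpf (-0.025, -0.026, -0.026 and -0.0062 under the same settings), and with 1 resting library left out they reached 0.87 and 0.79. Against LPS-treated cells, joined-style lymphomas alone gave 0.23 for Mki67, 0.047 for Cenpe, 0.17 for Nusap1, 0.092 for Ttk and 0.052 for Ndc80. Cenpf was -0.062 without the libraries above 1% Gm10800 and -0.31 in the separated style, and Cenpa -0.090 and -0.21 there, -0.066 without LPS cr and -0.024 without LPS co, where leaving out LPS wt gave 0.12. Relations: Mki67 with Top2a had r = 0.530 and Ccnb1 with Mybl2 r = -0.182 and Mki67 with Myc r = -0.114 in the joined style; Plk1 with Foxm1 had r = 0.514 without MLN cr T6, the lymphoma above 1% Gm10800 (permutation, adjusted p = 0.0380), where rho = 0.432 was not called (adjusted p = 0.0981); rho was 0.175 under median-of-ratios scaling (adjusted p = 0.627). Of the single-gene values, 1332 kept direction and side of the threshold, 128 lost the call, 24 gained it and 20 reversed. These totals hold the lymphoma fits without the wt control under both of their names.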
